A study of Mus musculus with 8 samples.

Results

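Solute carriers are membrane proteins that move small molecules across the plasma membrane and the membranes of organelles, and their genes carry the symbol Slc and a family number. Expressed solute carrier genes were selected on level, as those with at least 1 FPKM (a fragment count scaled by gene length and by the depth of the library) in at least 4 of the 8 libraries of 2 regulatory T cell (Treg) populations. Of 379 genes with such a symbol, 179 met that level, and Slc2a1, Slc2a3, Slc16a1 and Slc16a3, the main glucose and lactate carriers, were left out. The genes were thus chosen by their FPKM in both populations. This left 175 genes of 43 families, out of 47069 genes listed for all libraries and 12273 tested with the same level filter. In T cells, amino acid carriers such as CD98 with its light chains supply the nutrients sensed by mTORC1. Ion exchangers set pH, volume and calcium, and zinc and iron carriers supply enzymes. Most carriers of the Slc25 family exchange metabolites across the inner mitochondrial membrane. Tregs use these routes as other T cells do, and activated Tregs are known to rely on amino acid uptake.

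Both populations were CD4+CD25+ cells low in CD62L, sorted to a purity stated as above 90% from lymph nodes of C57BL/6 mice aged 6 to 8 weeks. Every mouse carried 2 reporters together, 35EbiT, in which Thy1.1 reports the gene of the interleukin-35 subunit Ebi3, and Blimp1-GFP KI, a knock-in of GFP at the gene of the transcription factor Blimp1 (Prdm1). The labels do not describe how the 35EbiT reporter was built. Ebi3-Treg were Thy1.1+Blimp1- and Blimp1-Treg were Thy1.1-Blimp1+, with 4 libraries each, for which 10 pg to 10 ng of RNA entered the SMART-Seq v4 kit for low input. Values are listed below in the order of replicates 1 to 4, and replicates 1 and 2 were deposited in one table and replicates 3 and 4 in another. The labels do not say whether replicates came from separate mice, so the p-values cover the spread of these libraries only, and part of it may be technical.

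By the steps between low values, the shallowest library held 13.3 M fragments (Ebi3-Treg 3) and the deepest 31.3 M (Blimp1-Treg 1). Prdm1 was at 3.36, 1.94, 4.33 and 3.62 FPKM in Ebi3-Treg and 97.2, 52.2, 107 and 121 in Blimp1-Treg. Ebi3 was at 25.7, 46.6, 26.0 and 20.1 FPKM in Ebi3-Treg and 7.05, 11.7, 7.03 and 4.94 in Blimp1-Treg. Both reporter genes followed the labels in every library. The 6 Treg markers (Foxp3, Il2ra, Cd4, Cd3e, Ctla4, Ikzf2) summed to between 2652 and 3865 FPKM in Ebi3-Treg, and to between 3489 and 5894 in Blimp1-Treg. The 8 B cell markers summed to 262 FPKM in Ebi3-Treg 1, to 179.9 FPKM in Blimp1-Treg 1, and to 32.7 to 72.4 FPKM elsewhere. The 7 monocyte and macrophage markers, mostly Lyz2, summed to between 10.1 and 105.8 FPKM in Ebi3-Treg, and to between 5.29 and 32.3 in Blimp1-Treg. Of these 7, the mean was higher in Blimp1-Treg for Cd14 and Itgam and higher in Ebi3-Treg for the other 5. The 6 stromal and endothelial markers, mostly Pecam1, summed to 30.9 to 66.7 FPKM and 16.7 to 34.3 FPKM in the same order. For the 5 plasma cell markers these sums were 11.0 to 44.4 FPKM and 6.01 to 25.3 FPKM. Of these 5, the mean was higher in Blimp1-Treg for Jchain and Mzb1 and higher in Ebi3-Treg for Sdc1, Tnfrsf17 and Derl3. The CD8 T cell, NK cell and erythroid markers summed highest in Ebi3-Treg 1, to 39.3, 15.5 and 13.3 FPKM. No gene of these lists was at 0 in all 8 libraries. Xist, the transcript of the inactive X chromosome, was at 0.0082 to 0.0750 FPKM in replicates 1 and 2 and 18.5 to 24.4 FPKM in replicates 3 and 4, so table and sex of the mice cannot be told apart. The part of these differences in the results below was not tested. In bulk samples fewer cells of a type and less RNA per cell cannot be told apart.

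The 250 bases before the annotated start are shown for called genes, a pair higher in Ebi3-Treg (Slc22a2 and Slc35g1) and a pair lower (Slc24a3 and Slc37a2), from RefSeq on GRCm38.p6, 5′ to 3′ on the gene's strand. They are shown to let a reader see the stretch upstream of genes called in each direction.
Slc22a2, chr17:12583939-12584188, plus strand: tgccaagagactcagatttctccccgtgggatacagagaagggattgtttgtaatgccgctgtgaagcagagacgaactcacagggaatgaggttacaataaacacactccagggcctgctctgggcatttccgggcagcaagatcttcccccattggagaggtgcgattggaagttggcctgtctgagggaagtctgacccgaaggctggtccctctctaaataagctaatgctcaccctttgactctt
Slc35g1, chr19:38395730-38395979, plus strand: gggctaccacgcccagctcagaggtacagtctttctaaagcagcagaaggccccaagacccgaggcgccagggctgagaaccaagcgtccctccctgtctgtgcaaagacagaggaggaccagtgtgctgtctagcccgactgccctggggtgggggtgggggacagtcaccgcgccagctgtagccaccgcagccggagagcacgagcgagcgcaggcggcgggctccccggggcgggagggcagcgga
Slc24a3, the first of 2 listed starts, chr2:145167525-145167774, plus strand: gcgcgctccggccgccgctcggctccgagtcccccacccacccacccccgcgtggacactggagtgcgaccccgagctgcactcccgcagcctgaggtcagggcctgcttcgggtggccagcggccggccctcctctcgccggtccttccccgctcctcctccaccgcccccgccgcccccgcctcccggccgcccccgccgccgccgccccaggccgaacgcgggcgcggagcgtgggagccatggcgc
Slc37a2, chr9:37255739-37255988, minus strand: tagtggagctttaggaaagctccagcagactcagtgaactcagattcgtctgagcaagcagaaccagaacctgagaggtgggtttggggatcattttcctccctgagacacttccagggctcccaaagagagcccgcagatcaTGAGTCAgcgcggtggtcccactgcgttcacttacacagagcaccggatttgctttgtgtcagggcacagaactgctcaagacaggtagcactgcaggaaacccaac
Capitals mark the match to a motif, and both strands were searched for the core letters bound by Blimp1 (GTGAAAG), TCF-1 (CTTTGAT), AP-1 (TGANTCA) and E-box factors (CACGTG). Of these 4 windows, that of Slc37a2 held one, an AP-1 match starting at position -107 from the start. No match says only that these letters are not in the window. Among 32851 RefSeq promoter windows of the same length, 3.57% held the Blimp1 letters, 3.21% the TCF-1 letters, 6.75% the AP-1 letters and 6.02% the E-box letters. The windows differed in composition: G and C made up 51.6% of the Slc22a2 window, 68.4% for Slc35g1, 80.8% for Slc24a3 and 53.6% for Slc37a2, against a median of 52.4% over all windows. RefSeq windows were matched for 131 of the 175 genes, and for 10 of the 15 that passed the test below, and no composition was compared over the set.

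The first question was which transport classes differed between the populations. Against a background of 6.29% of all 12273 genes called (limma on log2(FPKM + 1), with the table as a term, Benjamini-Hochberg adjusted p under 0.05), 15 of the 175 genes passed, 8.57%. Of these, 6 were higher in Ebi3-Treg (3.43%, background 3.37%) and 9 lower (5.14%, background 2.93%). Higher were Slc16a5, Slc22a2, Slc35g1, Slc26a10, Slc12a2 and Slc9b2. Lower were Slc24a3, Slc37a2, Slc15a3, Slc36a3os, Slc16a6, Slc17a5, Slc52a3, Slc25a24 and Slc35e4. The median log2 fold change, Ebi3-Treg minus Blimp1-Treg on this scale, was 0.07 over the 175 genes and 0.07 over all genes tested, and 14 of the 175 (8.00%) differed by at least 2-fold against 6.04% of all genes. With median-of-ratios scaling of the libraries those medians were -0.0002 and 0.002. Only Slc22a2 passed the level filter through Ebi3-Treg alone, so its inclusion already required a difference.

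By substrate, 8 of the 15 called genes belonged to 2 of the 11 classes. Organic acid, amine and drug carriers had 2 higher and 2 lower of 13 (30.8%), and inorganic ion and pH carriers 3 higher and 1 lower of 24 (16.7%). Over all genes tested 6.29% were called. Slc22a2, of the first class, entered through Ebi3-Treg alone, and whether the classes differed in their share of calls was not tested. Nucleotide sugar and orphan Slc35 genes had 1 higher and 1 lower of 21. A single gene was lower among 22 amino acid and peptide carriers, 36 mitochondrial carriers and 11 sugar and polyol carriers. The same held for 9 vitamin carriers and 5 genes that bear an Slc symbol but are not transporters. Classes were set by family, except for single genes placed apart from theirs, such as Slc43a3 with nucleosides and Slc5a6 with vitamins. The mitochondrial class is thus all Slc25 carriers of the 175, and the ion class includes the urea carrier Slc14a1. None passed limma's test among 23 metal carriers (2 at an unadjusted p under 0.05), 6 choline, fatty acid and acetyl-CoA carriers (2) and 5 nucleoside and nucleobase carriers (1). Over all genes tested 18.6% had an unadjusted p under 0.05, and 37 of the 175 (21.1%) did. The class medians ran from -0.26 for nucleosides and nucleobases to 0.42 for choline, fatty acids and acetyl-CoA. The plot of fold changes by substrate shows most classes centred near 0 with single genes far out.

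**Figure D1:**
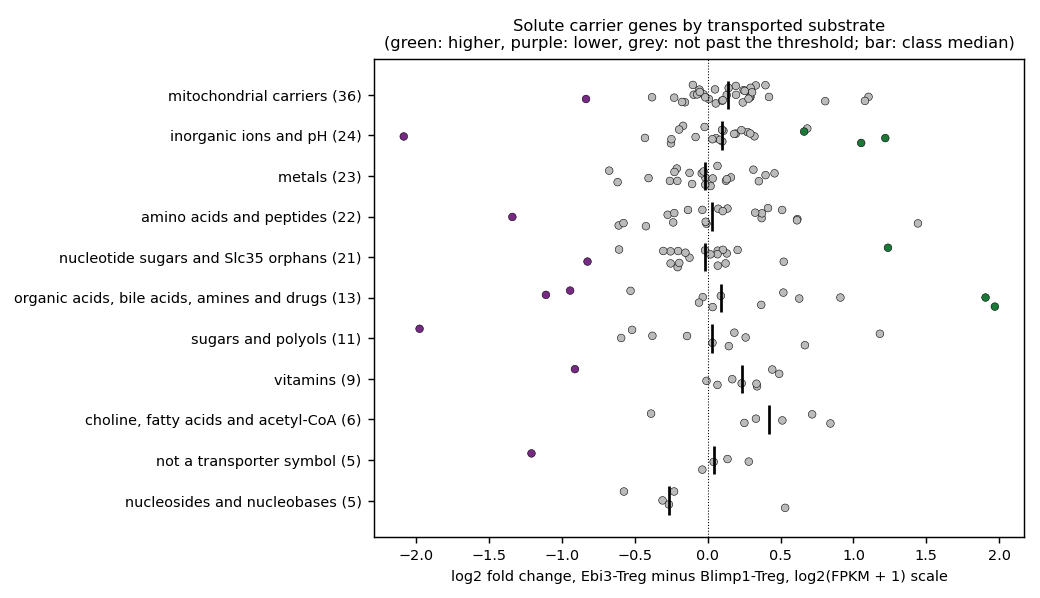
Each point is one of the 175 genes, placed by its log2 fold change (Ebi3-Treg minus Blimp1-Treg, log2(FPKM + 1) scale) in a row for its substrate class, with the class size in parentheses. Green points were higher and purple points lower at an adjusted p under 0.05, grey points were not past the threshold, and black bars are class medians, which run from -0.26 to 0.42 while single genes reach -2.08 and 1.97.

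Within their table the libraries numbered 1 and 2 deviated from their population means together (r = 0.85 across genes), while those numbered 3 and 4 did not (r = -0.08). Adding the replicate number to the model as a block gave 48 calls among the 175 genes (27.4%, background 22.4%), 31 higher (17.7%, background 13.5%) and 17 lower (9.71%, background 8.94%). All 15 genes above were among them with the same direction. The adjusted p with that block is given beside each solute carrier gene whose call it changed. Leaving out one library at a time left between 4 and 11 of the 175 genes called. Slc24a3, Slc16a6, Slc37a2 and Slc22a2, which had entered through Ebi3-Treg alone, passed every time. The other 11 lost the call without at least 1 library, as given for each. Without the term for the table, 10 lost it: Slc24a3 (adjusted p = 0.165), Slc26a10 (0.110), Slc12a2 (0.285), Slc9b2 (0.0743), Slc25a24 (0.0870), Slc36a3os (0.244), Slc35e4 (0.196), Slc35g1 (0.0806), Slc16a6 (0.0935) and Slc52a3 (0.0846).

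Carriers of organic acids, amines and drugs held the largest differences towards Ebi3-Treg. Slc16a5 encodes MCT6, a relative of the lactate carriers that takes drugs and no lactate. It was at 13.3, 5.81, 9.998 and 10.4 FPKM in Ebi3-Treg and 4.86, 0.642, 1.30 and 1.34 in Blimp1-Treg. Every Ebi3-Treg library was above every Blimp1-Treg library, and Blimp1-Treg 1 stood above the other Blimp1-Treg libraries (log2 fold change 1.97, SE 0.42, adjusted p = 0.0319). Slc16a5 differed by 1.67 in replicates 1 and 2 and by 2.27 in replicates 3 and 4. It was no longer past the threshold without one of Ebi3-Treg libraries 1, 3 or 4, or of Blimp1-Treg libraries 2, 3 or 4, where the adjusted p reached 0.113. Its exons overlap the antisense gene Gm11695, which was at means of 0.790 and 0.120 FPKM, and whether counting used strand is not given in the sources used here.

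Slc22a2 encodes OCT2, an organic cation carrier best known from the kidney. It was at 2.97, 6.07, 3.09 and 2.23 FPKM in Ebi3-Treg and 0.257, 0.242, 0.0984 and 0.0965 in Blimp1-Treg. All 4 Blimp1-Treg libraries were low and none overlapped Ebi3-Treg (log2 fold change 1.91, SE 0.23, adjusted p = 0.00364). Slc22a2 passed the level filter through Ebi3-Treg alone, so this lack of overlap was fixed by its inclusion. Its p-value is thus no separate support for a difference. Slc22a2 differed by 2.08 in replicates 1 and 2 and by 1.73 in replicates 3 and 4. With the shortest transcript length that made its values whole, 2115 bases, these levels came to 161, 259, 87 and 104 reads in Ebi3-Treg and 17, 10, 4 and 3 in Blimp1-Treg.

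Towards Blimp1-Treg, Slc16a6, which encodes the monocarboxylate carrier MCT7 known as a ketone body exporter in liver, was at 17.1, 24.2, 11.0 and 12.8 FPKM in Ebi3-Treg and 48.0, 41.9, 25.5 and 28.2 in Blimp1-Treg. The populations did not overlap, although both were lower in replicates 3 and 4 than in replicates 1 and 2 (log2 fold change -1.11, SE 0.15, adjusted p = 0.00605). Slc16a6 differed by -1.105 in replicates 1 and 2 and by -1.11 in replicates 3 and 4. Its exons overlap Amz2 and Arsg on the opposite strand, which did not pass the test (adjusted p = 0.926 and 0.857). Slc17a5, which encodes sialin, the exporter of sialic acid from lysosomes, was at 6.40, 4.77, 9.49 and 6.71 FPKM in Ebi3-Treg and 14.7, 12.7, 14.6 and 13.1 in Blimp1-Treg. The Blimp1-Treg libraries lay close together and all above Ebi3-Treg (log2 fold change -0.94, SE 0.19, adjusted p = 0.0251). Slc17a5 differed by -1.17 in replicates 1 and 2 and by -0.72 in replicates 3 and 4. Slc17a5 lost the call without one of Ebi3-Treg libraries 2 or 4, or of Blimp1-Treg libraries 1, 2, 3 or 4, where the adjusted p reached 0.0974.

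In the fit of both tables, 5 other genes of this class passed only with the replicate block, 4 of them higher in Ebi3-Treg. With that block 22.4% of all genes passed. Slc22a17, which encodes a receptor for the iron-binding protein lipocalin-2, was at 9.84 ± 3.59 FPKM in Ebi3-Treg and 5.06 ± 2.94 in Blimp1-Treg (SD, n = 4 each). Slc22a17 had a log2 fold change of 0.91 with an SE of 0.26 (adjusted p = 0.0919, or 0.00491 with the block). The monocarboxylate carrier relative Slc16a13 was at 8.22 ± 1.93 FPKM in Ebi3-Treg and 4.90 ± 0.739 in Blimp1-Treg (SD, n = 4 each), and its libraries did not overlap. Slc16a13 had a log2 fold change of 0.63 with an SE of 0.21 (adjusted p = 0.139, or 0.0139 with the block). The carnitine carrier Slc22a5, which supplies the shuttle of fatty acids into mitochondria, was at 24.5 ± 7.09 FPKM in Ebi3-Treg and 16.6 ± 4.24 in Blimp1-Treg (SD, n = 4 each). Slc22a5 had a log2 fold change of 0.52 with an SE of 0.18 (adjusted p = 0.162, or 0.00691 with the block). It also passed in replicates 3 and 4 alone (adjusted p = 0.0286). The taurine carrier Slc6a6 was the most abundant of the class at 68.9 ± 22.7 FPKM in Ebi3-Treg and 52.4 ± 12.3 in Blimp1-Treg (SD, n = 4 each). Slc6a6 had a log2 fold change of 0.37 with an SE of 0.27 (adjusted p = 0.583, or 0.0357 with the block). In the other direction the orphan Slc22a15 was at 11.2 ± 3.29 FPKM in Ebi3-Treg and 17.8 ± 9.57 in Blimp1-Treg (SD, n = 4 each). Slc22a15 had a log2 fold change of -0.53 with an SE of 0.21 (adjusted p = 0.232, or 0.0457 with the block). The vesicular nucleotide carrier Slc17a9, which loads ATP into vesicles, was at 36.4 ± 6.80 FPKM in Ebi3-Treg and 34.2 ± 6.598 in Blimp1-Treg (SD, n = 4 each) and did not pass in either fit. Slc17a9 had a log2 fold change of 0.09 with an SE of 0.20 (adjusted p = 0.907, or 0.520 with the block).

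Among carriers of inorganic ions, the largest difference of all 175 genes towards Blimp1-Treg was that of Slc24a3. It encodes NCKX3, which exports calcium and potassium in exchange for sodium. It was at 3.58, 1.24, 5.84 and 5.93 FPKM in Ebi3-Treg and 10.5, 6.10, 41.0 and 44.8 in Blimp1-Treg. The populations did not overlap, but the lowest Blimp1-Treg value barely exceeded the highest Ebi3-Treg value, and Blimp1-Treg 3 and 4 stood far above Blimp1-Treg 1 and 2 (log2 fold change -2.08, SE 0.33, adjusted p = 0.0102). Slc24a3 differed by -1.49 in replicates 1 and 2 and by -2.67 in replicates 3 and 4. The next gene on the same strand, Rin2, a regulator of Rab5 in endocytosis, was lower too (means of 11.0 and 58.8 FPKM, log2 fold change -2.28, adjusted p = 0.00121).

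The carriers higher in Ebi3-Treg in this class differed less. Slc26a10, of the anion exchanger family, was at 5.47, 2.998, 6.77 and 8.17 FPKM in Ebi3-Treg and 1.91, 0.741, 3.03 and 2.09 in Blimp1-Treg. Within each table the populations did not overlap, and over all 8 libraries the lowest Ebi3-Treg value fell just under the highest Blimp1-Treg value (log2 fold change 1.22, SE 0.25, adjusted p = 0.0262). Slc26a10 differed by 1.18 in replicates 1 and 2 and by 1.26 in replicates 3 and 4. Its exons overlap those of B4galnt1, a ganglioside synthase gene on the opposite strand that was far more abundant and also higher (means of 357 and 153 FPKM, log2 fold change 1.29, adjusted p = 0.0241), so their reads cannot be told apart without strand. Slc26a10 lost the call without one of Ebi3-Treg libraries 1, 3 or 4, or of Blimp1-Treg libraries 2, 3 or 4, where the adjusted p reached 0.104.

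Slc12a2 encodes NKCC1, which brings sodium, potassium and chloride into cells. It was at 10.002, 5.55, 15.98 and 12.7 FPKM in Ebi3-Treg and 3.14, 2.15, 8.09 and 6.61 in Blimp1-Treg. Both populations were higher in replicates 3 and 4, and they separated within each table but overlapped across tables (log2 fold change 1.05, SE 0.22, adjusted p = 0.0320). Slc12a2 differed by 1.23 in replicates 1 and 2 and by 0.87 in replicates 3 and 4. The call did not hold without one of Ebi3-Treg libraries 3 or 4, or of Blimp1-Treg libraries 1, 2, 3 or 4, where the adjusted p reached 0.116. Slc9b2, a sodium-proton exchanger gene of the NHA family, was at 6.73, 7.58, 6.83 and 6.90 FPKM in Ebi3-Treg and 3.62, 3.59, 4.31 and 4.81 in Blimp1-Treg. The Ebi3-Treg libraries were close together and all above Blimp1-Treg (log2 fold change 0.66, SE 0.15, adjusted p = 0.0445). Slc9b2 differed by 0.82 in replicates 1 and 2 and by 0.50 in replicates 3 and 4. It lost the call with median-of-ratios scaling (adjusted p = 0.0675) and when any one of the 8 libraries was left out, with adjusted p up to 0.139.

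The most abundant genes of the ion class did not pass in the fit of both tables. The urea carrier Slc14a1 was at 49.5, 29.6, 53.1 and 45.2 FPKM in Ebi3-Treg and 27.6, 17.6, 37.4 and 27.5 in Blimp1-Treg. Each Ebi3-Treg library was above the Blimp1-Treg library of the same number. Slc14a1 had a log2 fold change of 0.68 with an SE of 0.22 (adjusted p = 0.135, or 0.00274 with the block). The endosomal sodium-proton exchanger Slc9a9 was at 38.5 ± 10.6 FPKM in Ebi3-Treg and 39.9 ± 14.97 in Blimp1-Treg (SD, n = 4 each). Slc9a9 had a log2 fold change of -0.02 with an SE of 0.20 (adjusted p = 0.982, or 0.917 with the block). The 20 uncalled genes of this class had log2 fold changes from -0.43 to 0.68. Among them were the potassium-chloride exporters Slc12a4 and Slc12a7 and the phosphate importers Slc20a1 and Slc20a2.

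**Figure D2:**
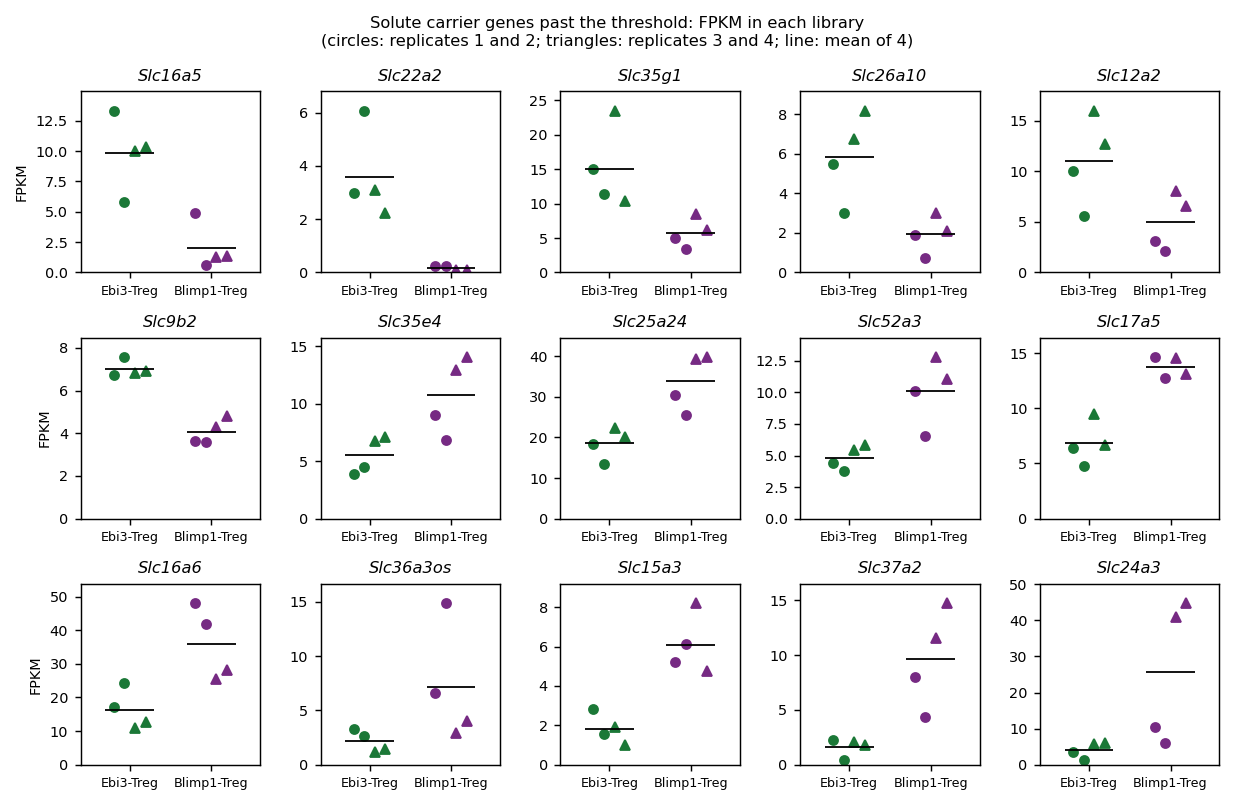
FPKM of the 15 solute carrier genes past the threshold, one panel per gene with its own axis from 0. Green marks are Ebi3-Treg and purple marks Blimp1-Treg, circles are replicates 1 and 2, triangles replicates 3 and 4, and lines are means of 4 libraries. For example, Slc16a6 was at 24.2 or less in every Ebi3-Treg library and at 25.5 or more in every Blimp1-Treg library.

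Of the amino acid and peptide carriers, Slc15a3 passed the test. It encodes a lysosomal carrier of histidine and small peptides that is prominent in myeloid cells. It was at 2.86, 1.56, 1.92 and 0.997 FPKM in Ebi3-Treg and 5.22, 6.11, 8.21 and 4.77 in Blimp1-Treg. The populations did not overlap (log2 fold change -1.34, SE 0.26, adjusted p = 0.0214). Slc15a3 differed by -1.08 in replicates 1 and 2 and by -1.59 in replicates 3 and 4. The call was lost without one of Ebi3-Treg libraries 2, 3 or 4, or of Blimp1-Treg libraries 3 or 4, where the adjusted p reached 0.0714. Of the monocyte and macrophage markers, Lyz2 was at 99.1, 91.1, 8.00 and 20.4 FPKM in Ebi3-Treg and 29.9, 7.90, 3.74 and 8.44 in Blimp1-Treg, and Cd14 at 0.249, 0.189, 0.239 and 0.144 FPKM in Ebi3-Treg and 0.407, 1.73, 0.0993 and 1.43 in Blimp1-Treg. Their part in the result was not tested.

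No heavy or light chain of the plasma membrane exchangers passed over both tables without the block. Slc3a2, the CD98 heavy chain that holds the light chains at the surface, was at 295, 654, 280.2 and 280.0 FPKM in Ebi3-Treg and 362, 679.6, 343 and 345 in Blimp1-Treg. In both populations replicate 2 stood far above the others. Slc3a2 had a log2 fold change of -0.24 with an SE of 0.28 (adjusted p = 0.787, or 0.0790 with the block). The leucine light chain LAT1, Slc7a5, was at 69.0, 27.5, 32.1 and 39.3 FPKM in Ebi3-Treg and 36.9, 16.5, 24.1 and 28.2 in Blimp1-Treg. It was higher in Ebi3-Treg within every replicate number. Slc7a5 had a log2 fold change of 0.61 with an SE of 0.34 (adjusted p = 0.409, or 0.00795 with the block). The light chain Slc7a6, which exchanges basic for neutral amino acids, was at 16.05 ± 1.23 FPKM in Ebi3-Treg and 12.6 ± 0.872 in Blimp1-Treg (SD, n = 4 each), with no overlap. Slc7a6 had a log2 fold change of 0.33 with an SE of 0.14 (adjusted p = 0.244, or 0.0481 with the block). The light chain Slc7a7, which exports basic amino acids, was at 2.44, 2.16, 1.67 and 1.82 FPKM in Ebi3-Treg and 2.16, 2.50, 6.55 and 3.84 in Blimp1-Treg. The populations overlapped in replicates 1 and 2 and not in replicates 3 and 4, where Blimp1-Treg was higher. Slc7a7 had a log2 fold change of -0.58 with an SE of 0.28 (adjusted p = 0.328, or 0.182 with the block).

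Slc7a10, the light chain Asc-1 for small neutral amino acids, had the largest fold change of the class without passing. It was at 50.5, 45.2, 99.9 and 82.7 FPKM in Ebi3-Treg and 9.46, 7.32, 57.4 and 71.6 in Blimp1-Treg. The 4 Ebi3-Treg libraries were high in both tables, whereas Blimp1-Treg was low in replicates 1 and 2 and high in replicates 3 and 4. Slc7a10 had a log2 fold change of 1.44 with an SE of 0.37 (adjusted p = 0.0613, or 0.0353 with the block). Slc7a10 differed by 2.39 in replicates 1 and 2 and by 0.50 in replicates 3 and 4. The test of the change between tables gave -1.89, with an unadjusted p of 0.000727 and an adjusted p of 0.99996 (limma).

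The remaining amino acid carriers had smaller fold changes. The glutamine carrier ASCT2, Slc1a5, was among the most abundant of all 175 genes at 339.8 ± 74.6 FPKM in Ebi3-Treg and 426 ± 143 in Blimp1-Treg (SD, n = 4 each). Slc1a5 had a log2 fold change of -0.27 with an SE of 0.24 (adjusted p = 0.678, or 0.126 with the block). The sodium-coupled glutamine carrier Slc38a1 was at 22.6 ± 5.46 FPKM in Ebi3-Treg and 16.6 ± 2.999 in Blimp1-Treg (SD, n = 4 each). Slc38a1 had a log2 fold change of 0.41 with an SE of 0.22 (adjusted p = 0.382, or 0.0315 with the block). The related Slc38a6 was at 71.5 ± 32.2 FPKM in Ebi3-Treg and 54.1 ± 23.0 in Blimp1-Treg (SD, n = 4 each). Slc38a6 had a log2 fold change of 0.37 with an SE of 0.40 (adjusted p = 0.745, or 0.0263 with the block). Slc7a4, of the cationic amino acid carrier branch, was at 3.37 ± 1.25 FPKM in Ebi3-Treg and 1.89 ± 0.920 in Blimp1-Treg (SD, n = 4 each). Slc7a4 had a log2 fold change of 0.62 with an SE of 0.19 (adjusted p = 0.125, or 0.0433 with the block). The neutral amino acid carrier LAT4, Slc43a2, was lower with the block, at 39.2 ± 11.9 FPKM in Ebi3-Treg and 62.0 ± 22.6 in Blimp1-Treg (SD, n = 4 each). Slc43a2 had a log2 fold change of -0.61 with an SE of 0.34 (adjusted p = 0.414, or 0.00430 with the block). Within replicates 3 and 4 alone Slc43a2 passed at -0.69 (adjusted p = 0.0119), and so did Slc3a2 at -0.30 (adjusted p = 0.0497). The plasma membrane arginine carrier Slc7a1 and the lysosomal arginine sensor Slc38a9 did not pass.

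Genes that respond to or sense amino acids were called about as often as all genes (background 6.29%, or 22.4% with the block). Of 24 tested genes of the Atf4 amino acid response, 1 was higher and none lower (median 0.09), namely the asparagine synthetase gene Asns, and with the block 4 were higher and 2 lower. Asns was at 14.6, 21.6, 12.03 and 10.8 FPKM in Ebi3-Treg and 6.62, 9.79, 6.604 and 6.56 in Blimp1-Treg (log2 fold change 0.88, adjusted p = 0.0360). Of 34 tested genes of lysosomal amino acid sensing, 2 were higher and none lower (median 0.11), and with the block 5 were higher and 2 lower. Rragd, a Rag GTPase that recruits mTORC1 to lysosomes, was at 12.6, 13.7, 17.0 and 12.2 FPKM in Ebi3-Treg and 2.24, 3.34, 5.79 and 3.68 in Blimp1-Treg (log2 fold change 1.68, adjusted p = 0.00442). Sesn3, a sestrin that restrains mTORC1, was at 24.8, 31.0, 19.9 and 22.6 FPKM in Ebi3-Treg and 9.38, 9.72, 8.55 and 11.4 in Blimp1-Treg (log2 fold change 1.24, adjusted p = 0.00596). For all 3 genes each Ebi3-Treg library was above each Blimp1-Treg library.

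Transporters and partners without an Slc symbol had 1 higher and 2 lower of 24 tested (median 0.02), where 6.29% of all genes passed. With the block 3 were higher and 4 lower, where 22.4% of all genes passed. The xenobiotic pump Abcg2 was at 17.4, 18.1, 29.5 and 25.03 FPKM in Ebi3-Treg and 5.61, 5.87, 17.6 and 15.9 in Blimp1-Treg (log2 fold change 1.07, adjusted p = 0.0178). It was higher in Ebi3-Treg within each table. The water and glycerol channel Aqp3 was at 25.1, 14.7, 18.8 and 14.8 FPKM in Ebi3-Treg and 94.8, 44.3, 55.8 and 53.9 in Blimp1-Treg (log2 fold change -1.68, adjusted p = 0.00965), with no overlap. Mfsd10, of the same transporter superfamily as many carriers, was lower at -0.53 (adjusted p = 0.0306).

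Over both tables carriers of choline and fatty acids did not pass without the block. The 3 genes that passed with it were higher in Ebi3-Treg, where 22.4% of all genes passed with it. Slc44a1, a choline carrier of the plasma membrane and mitochondria, was at 26.0, 15.1, 34.4 and 27.5 FPKM in Ebi3-Treg and 9.68, 7.61, 20.3 and 20.7 in Blimp1-Treg. Within each table both Ebi3-Treg libraries were above both Blimp1-Treg libraries. Slc44a1 had a log2 fold change of 0.84 with an SE of 0.22 (adjusted p = 0.0658, or 0.0101 with the block). Slc44a2, a choline carrier and the most abundant of the class, was at 176, 76.2, 187 and 196 FPKM in Ebi3-Treg and 114, 48.9, 141 and 148 in Blimp1-Treg. Replicate 2 was lowest in each population. Slc44a2 had a log2 fold change of 0.51 with an SE of 0.32 (adjusted p = 0.493, or 0.00522 with the block). In replicates 3 and 4 alone Slc44a2 passed without the block (adjusted p = 0.0330). The fatty acid carrier and acyl-CoA synthetase Slc27a1 was at 10.7 ± 3.05 FPKM in Ebi3-Treg and 6.61 ± 3.41 in Blimp1-Treg (SD, n = 4 each). Slc27a1 had a log2 fold change of 0.72 with an SE of 0.28 (adjusted p = 0.207, or 0.0225 with the block).

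Over all 8 libraries no metal carrier passed without the block. Slc41a3, a magnesium carrier, was closest to the threshold at 11.0, 9.42, 12.1 and 15.04 FPKM in Ebi3-Treg and 20.1, 13.9, 21.6 and 23.0 in Blimp1-Treg. The highest Ebi3-Treg value overlapped the Blimp1-Treg value of replicate 2 alone. Slc41a3 had a log2 fold change of -0.67 with an SE of 0.16 (adjusted p = 0.0532, or 0.00458 with the block). It passed without Blimp1-Treg 2 (adjusted p = 0.0372) and in replicates 3 and 4 alone. The zinc importer Slc39a4 was at 21.7, 19.1, 28.0 and 24.4 FPKM in Ebi3-Treg and 32.8, 23.3, 47.8 and 45.3 in Blimp1-Treg. It was lower in Ebi3-Treg within every replicate number. Slc39a4 had a log2 fold change of -0.62 with an SE of 0.16 (adjusted p = 0.0699, or 0.0105 with the block). Slc39a4 also passed without Blimp1-Treg 2 (adjusted p = 0.0238) and in replicates 3 and 4 alone.

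With the block the iron importer DMT1, Slc11a2, was lower, at 32.2 ± 6.09 FPKM in Ebi3-Treg and 43.4 ± 11.7 in Blimp1-Treg (SD, n = 4 each). Slc11a2 had a log2 fold change of -0.40 with an SE of 0.22 (adjusted p = 0.396, or 0.0269 with the block). The zinc carrier Slc39a13 was higher with the block, at 40.8 ± 11.0 FPKM in Ebi3-Treg and 32.9 ± 10.05 in Blimp1-Treg (SD, n = 4 each). Slc39a13 had a log2 fold change of 0.31 with an SE of 0.21 (adjusted p = 0.541, or 0.0400 with the block). The most abundant metal carrier, the magnesium carrier Slc41a1, was at 82.8 ± 27.2 FPKM in Ebi3-Treg and 89.3 ± 39.97 in Blimp1-Treg (SD, n = 4 each). Slc41a1 had a log2 fold change of -0.02 with an SE of 0.39 (adjusted p = 0.994, or 0.950 with the block). The zinc importer Slc39a6 was at 50.7 ± 14.9 FPKM in Ebi3-Treg and 48.0 ± 13.1 in Blimp1-Treg (SD, n = 4 each). Slc39a6 had a log2 fold change of 0.07 with an SE of 0.22 (adjusted p = 0.942, or 0.568 with the block). Of 21 tested metal handling genes that are not solute carriers, none passed in limma's fit of both tables in either direction (1 at an unadjusted p under 0.05, median 0.04), and 1 was lower with the block. Of 25 tested ion pumps, channels and regulators none passed limma's test without the block (10 at an unadjusted p under 0.05, median -0.17). With the block 3 of these 25 were higher and 7 lower, where 13.5% of all genes were higher and 8.94% lower. Over all genes tested, 18.6% had an unadjusted p under 0.05 in limma's fit without the block.

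Of the mitochondrial carriers, Slc25a24 passed. It encodes a calcium-regulated carrier that exchanges ATP-magnesium for phosphate. It was at 18.4, 13.4, 22.4 and 20.02 FPKM in Ebi3-Treg and 30.5, 25.6, 39.4 and 39.8 in Blimp1-Treg. Every Blimp1-Treg library was above every Ebi3-Treg library (log2 fold change -0.83, SE 0.15, adjusted p = 0.0159). Slc25a24 differed by -0.79 in replicates 1 and 2 and by -0.87 in replicates 3 and 4. The call was lost without one of Ebi3-Treg libraries 3 or 4, or of Blimp1-Treg libraries 1, 3 or 4, where the adjusted p reached 0.0777. A neighbour of Slc25a24 on the same strand, Vav3, was called in the opposite direction (means of 34.4 and 22.2 FPKM, log2 fold change 0.63, adjusted p = 0.0404). Slc25a23, a carrier of the same calcium-regulated subfamily, was at 8.88, 4.18, 8.31 and 7.85 FPKM in Ebi3-Treg and 4.03, 1.46, 2.50 and 3.56 in Blimp1-Treg. Its libraries did not overlap either, with the opposite sign. Slc25a23 had a log2 fold change of 1.103 with an SE of 0.29 (adjusted p = 0.0708, or 0.00268 with the block). Slc25a23 differed by 1.02 in replicates 1 and 2 and by 1.18 in replicates 3 and 4. Slc25a23 passed without Blimp1-Treg 1 (adjusted p = 0.0462).

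With the block, 5 of the 36 mitochondrial carriers were higher (13.5% of all genes) and 1, Slc25a24, was lower (8.94% of all genes). Beside Slc25a23 these included Slc25a29, a carrier of basic amino acids, at 11.1 ± 1.57 FPKM in Ebi3-Treg and 6.00 ± 1.35 in Blimp1-Treg (SD, n = 4 each). Slc25a29 had a log2 fold change of 0.81 with an SE of 0.20 (adjusted p = 0.0538, or 0.00331 with the block). Slc25a42, a carrier of coenzyme A, was at 6.43 ± 1.84 FPKM in Ebi3-Treg and 2.67 ± 1.498 in Blimp1-Treg (SD, n = 4 each). Slc25a42 had a log2 fold change of 1.08 with an SE of 0.28 (adjusted p = 0.0639, or 0.0108 with the block). The heart-type ADP/ATP carrier Slc25a4 was at 96.5 ± 34.4 FPKM in Ebi3-Treg and 71.4 ± 21.97 in Blimp1-Treg (SD, n = 4 each). Slc25a4 had a log2 fold change of 0.42 with an SE of 0.18 (adjusted p = 0.269, or 0.0187 with the block). The phosphate carrier Slc25a3 was at 300.5 ± 129 FPKM in Ebi3-Treg and 241 ± 87.4 in Blimp1-Treg (SD, n = 4 each). Slc25a3 had a log2 fold change of 0.29 with an SE of 0.25 (adjusted p = 0.656, or 0.0319 with the block).

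The more abundant ADP/ATP carrier Slc25a5 was at 428, 860.1, 373 and 348 FPKM in Ebi3-Treg and 526, 821, 348 and 369 in Blimp1-Treg. Replicate 2 was highest in both populations. Slc25a5 had a log2 fold change of -0.05 with an SE of 0.24 (adjusted p = 0.957, or 0.724 with the block). Slc25a5, Slc25a4 and Slc25a3 have processed pseudogene copies, and their levels are uncertain where reads could be shared. Among 35 uncalled mitochondrial carriers the log2 fold changes ran from -0.38 to 1.103. Of 21 other tested mitochondrial transport genes none passed limma's test in either direction, against 6.29% of all genes. At an unadjusted p under 0.05 there were 2 (18.6% of all genes). The median log2 fold change of the 21 was 0.096. With the block 2 were higher (13.5% of all genes).

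Orphan members of the Slc35 family, whose known members carry nucleotide sugars into the secretory pathway, gave 1 gene in each direction. Slc35g1 was at 14.99, 11.4, 23.5 and 10.4 FPKM in Ebi3-Treg and 4.98, 3.44, 8.46 and 6.12 in Blimp1-Treg. The populations did not overlap, and Ebi3-Treg 3 was highest (log2 fold change 1.24, SE 0.28, adjusted p = 0.0388). Slc35g1 differed by 1.45 in replicates 1 and 2 and by 1.02 in replicates 3 and 4. The call was lost without one of Ebi3-Treg libraries 1, 2 or 3, or of Blimp1-Treg libraries 1, 2, 3 or 4, where the adjusted p reached 0.136. Slc35e4 was at 3.84, 4.50, 6.79 and 7.11 FPKM in Ebi3-Treg and 9.004, 6.85, 12.9 and 14.0 in Blimp1-Treg. Replicates 3 and 4 were higher in both populations, and the highest Ebi3-Treg value exceeded only the Blimp1-Treg value of replicate 2 (log2 fold change -0.82, SE 0.15, adjusted p = 0.0194). Slc35e4 differed by -0.78 in replicates 1 and 2 and by -0.87 in replicates 3 and 4. Slc35e4 was not called without one of Ebi3-Treg libraries 3 or 4, or of Blimp1-Treg libraries 1, 3 or 4, where the adjusted p reached 0.0924. A neighbour of Slc35e4 on the same strand, Tcn2, was lower too (means of 24.3 and 35.8 FPKM, log2 fold change -0.55, adjusted p = 0.0328).

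Slc35d1, Slc35c1 and Slc35b1, which have known substrates, passed over both tables with the block alone. Slc35d1, the carrier of UDP-glucuronic acid, was at 23.2, 24.0, 19.6 and 17.7 FPKM in Ebi3-Treg and 14.4, 15.9, 12.9 and 14.1 in Blimp1-Treg. The populations did not overlap. Slc35d1 had a log2 fold change of 0.52 with an SE of 0.13 (adjusted p = 0.0579, or 0.0109 with the block). Slc35c1, the Golgi GDP-fucose carrier, was at 26.5 ± 10.9 FPKM in Ebi3-Treg and 41.4 ± 16.7 in Blimp1-Treg (SD, n = 4 each). Slc35c1 had a log2 fold change of -0.61 with an SE of 0.42 (adjusted p = 0.550, or 0.0108 with the block). Slc35c1 passed without the block in replicates 3 and 4 alone (adjusted p = 0.0161). Slc35b1, an ATP carrier of the endoplasmic reticulum, was at 63.4 ± 12.02 FPKM in Ebi3-Treg and 76.2 ± 17.3 in Blimp1-Treg (SD, n = 4 each). Slc35b1 had a log2 fold change of -0.25 with an SE of 0.16 (adjusted p = 0.513, or 0.0479 with the block). The most abundant of the class, Slc35a4, was at 96.4 ± 17.4 FPKM in Ebi3-Treg and 89.8 ± 22.7 in Blimp1-Treg (SD, n = 4 each) and did not pass in either fit. Slc35a4 had a log2 fold change of 0.12 with an SE of 0.17 (adjusted p = 0.826, or 0.354 with the block). The 19 uncalled genes of the class had log2 fold changes from -0.61 to 0.52.

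Slc37a2, which encodes a carrier of glucose 6-phosphate in the endoplasmic reticulum that is prominent in macrophages, was the one called gene of the sugar class. It was at 2.25, 0.436, 2.10 and 1.78 FPKM in Ebi3-Treg and 7.99, 4.38, 11.5 and 14.7 in Blimp1-Treg. The highest Ebi3-Treg value lay below the lowest Blimp1-Treg value (log2 fold change -1.97, SE 0.31, adjusted p = 0.00961). Slc37a2 differed by -1.69 in replicates 1 and 2 and by -2.26 in replicates 3 and 4. The part of monocyte and macrophage markers in this result was not tested either.

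Slc2a6, Slc37a1 and Slc37a3 passed over both tables with the block alone. The glucose transporter GLUT6, Slc2a6, was at 9.92, 5.72, 5.22 and 3.20 FPKM in Ebi3-Treg and 1.46, 1.62, 2.32 and 2.39 in Blimp1-Treg. Every Ebi3-Treg library was above every Blimp1-Treg library. Slc2a6 had a log2 fold change of 1.18 with an SE of 0.30 (adjusted p = 0.0588, or 0.0272 with the block). Slc2a6 differed by 1.75 in replicates 1 and 2 and by 0.61 in replicates 3 and 4. The sugar phosphate carrier relatives Slc37a1 and Slc37a3 had opposite signs. Slc37a1 was at 30.2 ± 14.5 FPKM in Ebi3-Treg and 19.4 ± 9.59 in Blimp1-Treg (SD, n = 4 each). Slc37a1 had a log2 fold change of 0.67 with an SE of 0.51 (adjusted p = 0.604, or 0.0139 with the block). Slc37a3 was at 25.2 ± 6.89 FPKM in Ebi3-Treg and 38.2 ± 7.96 in Blimp1-Treg (SD, n = 4 each). Slc37a3 had a log2 fold change of -0.59 with an SE of 0.24 (adjusted p = 0.235, or 0.00478 with the block). The most abundant of the class, the sugar carrier SWEET1, Slc50a1, was at 128 ± 21.1 FPKM in Ebi3-Treg and 113 ± 25.6 in Blimp1-Treg (SD, n = 4 each) and did not pass in either fit. Slc50a1 had a log2 fold change of 0.18 with an SE of 0.13 (adjusted p = 0.580, or 0.170 with the block). The next most abundant, Slc45a4, was at 34.9, 12.4, 43.0 and 50.5 FPKM in Ebi3-Treg and 57.0, 19.9, 42.7 and 57.6 in Blimp1-Treg. Slc45a4 had a log2 fold change of -0.38 and did not pass (adjusted p = 0.747 in limma's fit without the block).

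Slc52a3 was the called vitamin carrier and encodes a riboflavin importer. It was at 4.42, 3.75, 5.401 and 5.80 FPKM in Ebi3-Treg and 10.1, 6.52, 12.8 and 11.1 in Blimp1-Treg. The populations did not overlap (log2 fold change -0.91, SE 0.18, adjusted p = 0.0225). Slc52a3 differed by -0.85 in replicates 1 and 2 and by -0.97 in replicates 3 and 4. The call was lost without one of Ebi3-Treg libraries 2, 3 or 4, or of Blimp1-Treg libraries 1, 3 or 4, where the adjusted p reached 0.0951. The other named vitamin carriers did not pass in the fit of both tables and had the opposite sign. The ascorbate importer Slc23a2 was at 45.0 ± 11.6 FPKM in Ebi3-Treg and 35.3 ± 8.04 in Blimp1-Treg (SD, n = 4 each). Slc23a2 had a log2 fold change of 0.34 with an SE of 0.24 (adjusted p = 0.574, or 0.0361 with the block). The reduced folate carrier Slc19a1 was at 50.9 ± 9.98 FPKM in Ebi3-Treg and 39.9 ± 7.12 in Blimp1-Treg (SD, n = 4 each). Slc19a1 had a log2 fold change of 0.34 with an SE of 0.19 (adjusted p = 0.410, or 0.0643 with the block). The proton-coupled folate carrier Slc46a1 was at 1.63 ± 0.269 FPKM in Ebi3-Treg and 0.875 ± 0.269 in Blimp1-Treg (SD, n = 4 each), with no overlap. Slc46a1 had a log2 fold change of 0.49 with an SE of 0.18 (adjusted p = 0.177, or 0.0855 with the block).

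Nucleoside carriers gave no call in the fit of both tables. The lysosomal nucleoside carrier Slc29a3 was at 14.5, 8.81, 15.1 and 14.96 FPKM in Ebi3-Treg and 8.66, 5.07, 12.2 and 10.5 in Blimp1-Treg. It was higher in Ebi3-Treg within each replicate number. Slc29a3 had a log2 fold change of 0.53 with an SE of 0.22 (adjusted p = 0.243, or 0.0182 with the block). The 3 named carriers of the plasma membrane had the opposite sign and did not pass in either fit. The concentrative carrier Slc28a2 was at 72.7 ± 20.7 FPKM in Ebi3-Treg and 89.2 ± 19.7 in Blimp1-Treg (SD, n = 4 each). Slc28a2 had a log2 fold change of -0.31 with an SE of 0.19 (adjusted p = 0.494, or 0.0559 with the block). The equilibrative carrier ENT1, Slc29a1, was at 61.5 ± 13.5 FPKM in Ebi3-Treg and 72.6 ± 16.7 in Blimp1-Treg (SD, n = 4 each). Slc29a1 had a log2 fold change of -0.23 with an SE of 0.15 (adjusted p = 0.521, or 0.137 with the block). The monoamine carrier Slc29a4 was at 1.59 ± 0.661 FPKM in Ebi3-Treg and 2.94 ± 1.35 in Blimp1-Treg (SD, n = 4 each). Slc29a4 had a log2 fold change of -0.57 with an SE of 0.28 (adjusted p = 0.334, or 0.0784 with the block).

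Of the 5 genes that carry the symbol without being transporters, the non-coding Slc36a3os was lower. It was at 3.31, 2.67, 1.15 and 1.48 FPKM in Ebi3-Treg and 6.64, 14.9, 2.90 and 4.06 in Blimp1-Treg. Within each table the populations did not overlap, while the spread in Blimp1-Treg was wide (log2 fold change -1.21, SE 0.27, adjusted p = 0.0377). Slc36a3os differed by -1.47 in replicates 1 and 2 and by -0.94 in replicates 3 and 4. Its neighbour on the same strand, Gm2a, which encodes the GM2 ganglioside activator, was lower as well (means of 56.9 and 128.9 FPKM, -1.14, adjusted p = 0.00230). Slc36a3os lost the call without one of Ebi3-Treg libraries 1, 2, 3 or 4, or of Blimp1-Treg libraries 3 or 4, where the adjusted p reached 0.131. The scaffold gene Slc9a3r1 was at 292 ± 13.5 FPKM in Ebi3-Treg and 301 ± 28.2 in Blimp1-Treg (SD, n = 4 each), with a log2 fold change of -0.04 (adjusted p = 0.945). Slc7a6os was at 30.5 ± 3.54 FPKM in Ebi3-Treg and 27.7 ± 3.87 in Blimp1-Treg (SD, n = 4 each), with a log2 fold change of 0.14 (adjusted p = 0.680).

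Levels, compared per length as FPKM, spanned a wide range across genes. The mean over all 8 libraries ran from 0.864 to 509 FPKM with a median of 15.2 FPKM, and 158 of the 175 genes reached 1 FPKM in all 8. Highest were Slc25a5, Slc3a2, Slc1a5, Slc9a3r1 and Slc25a3. The libraries numbered 2 stood apart: both were lowest of their population for 108 of the 175 genes (61.7%, against 42.2% of all genes) and both highest for 17 (9.71%, against 24.6%). Those 108 genes had a median exon length of 5090.5 bases and those 17 of 3529 bases, against 4642 bases over all 175 genes. Without both libraries numbered 2 the fit called 19 genes higher and 19 lower, with 16.0% of all genes called, and without both numbered 1 it called 19 higher and 16 lower, with 16.1% of all genes called.

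**Figure D3:**
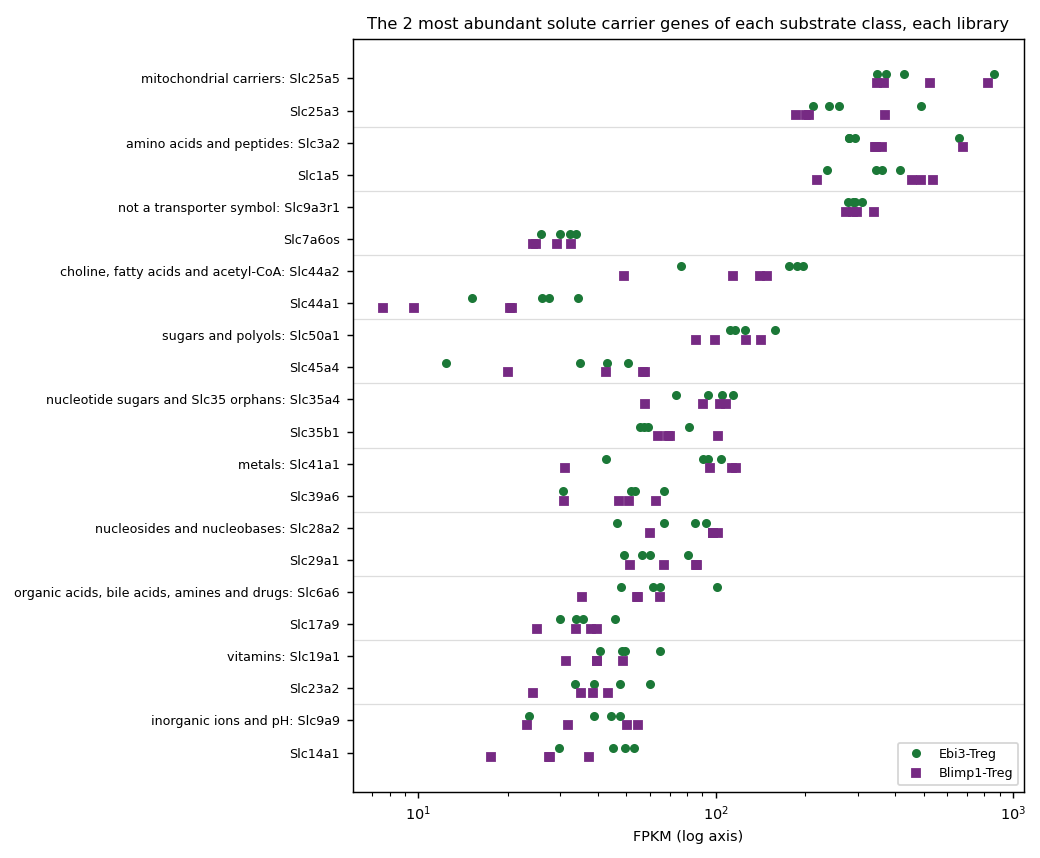
FPKM on a log axis of the 2 most abundant genes of each substrate class, one point per library, green circles for Ebi3-Treg and purple squares for Blimp1-Treg. Classes are separated by lines, and the points of the 2 populations lie among each other for most genes, with Slc25a5 between 348 and 860.1 FPKM.

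The comparison within tables was then set out for each pair of replicates. In replicates 1 and 2 limma called 0 of the 175 genes at an adjusted p under 0.05, where 0.0% of all genes were called. At an unadjusted p under 0.05 it had 13 (7.43%, background 5.76%), and with the replicate block it called 51 of 175, where 23.3% of all genes were called. In replicates 3 and 4 it called 21 (12%, background 11.0%), 7 higher (background 5.51%) and 14 lower (background 5.47%). Of those, 11 were also called over both tables and 10 were not. The 10 were Slc43a2, Slc3a2, Slc44a2, Slc12a4, Slc4a2, Slc41a3, Slc39a4, Slc25a23, Slc35c1 and Slc22a5.

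Most genes kept their direction from one table to the other. The sign was the same in both for 123 of 175 (70.3%, against 69.7% of all genes), and the populations did not overlap in either table, in the same direction, for 40 (22.9%, background 19.0%). Over all 8 libraries together 20 genes did not overlap (11.4%, background 11.1%), 13 higher (7.43%, background 6.63%) and 7 lower (4%, background 4.5%). Among the 13, Slc22a2 was included through Ebi3-Treg alone, which fixed its lack of overlap. Log2 fold changes above 0 made up 101 of 175 over both tables (57.7%, against 59.2% of all genes), 117 of 175 (66.9%, against 61.2% of all genes) in replicates 1 and 2 and 85 of 175 (48.6%, against 55.1%) in replicates 3 and 4. These shares depended on the scaling. With median-of-ratios scaling 87 of 175 were above 0 over both tables, 93 in replicates 1 and 2 and 80 in replicates 3 and 4. The share of all genes above 0 was not computed with that scaling. The test of the difference between tables called 0 genes (limma, 0.0% of all genes). At an unadjusted p under 0.05 it had 3, Slc7a10, Slc7a7 and Slc2a6, where 1.65% of all genes had one, and with the replicate block 0 of 175 against 0.106% of all genes.

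**Figure D4:**
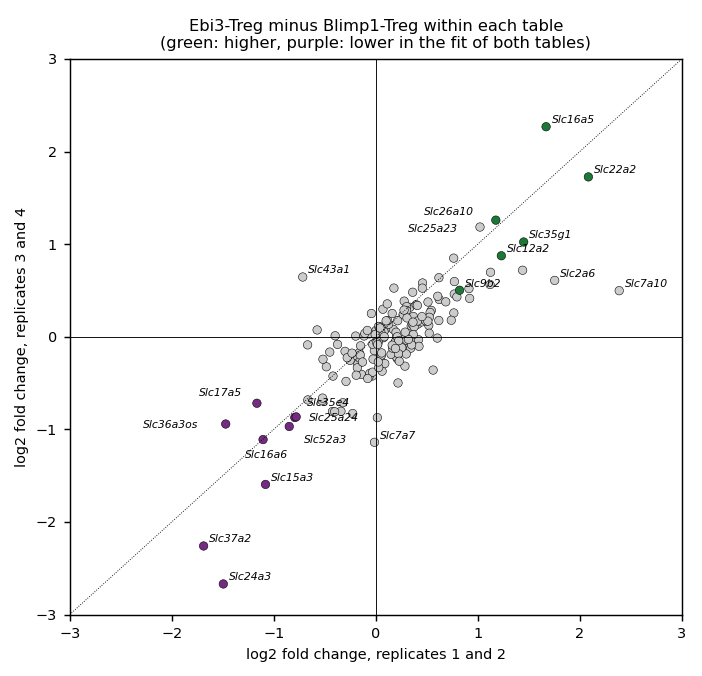
Each point is one of the 175 genes, with its log2 fold change (Ebi3-Treg minus Blimp1-Treg) in replicates 1 and 2 on the horizontal axis and in replicates 3 and 4 on the vertical axis, and the dotted line marks equal values. Green and purple points passed the threshold over both tables and lie in the same corner in both, and Slc7a10 lies at 2.39 and 0.50.

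The level filter used the fourth highest of the 8 values. Just inside it were the glutamate carrier Slc1a3 (1.03 FPKM) and the zinc importer Slc39a1 (1.06 FPKM). Slc1a3 was at 1.81, 0.661, 1.61 and 1.31 FPKM in Ebi3-Treg and 0.427, 0.893, 0.846 and 1.03 in Blimp1-Treg. Slc39a1 was at 2.12, 1.40, 0.730 and 0.785 FPKM in Ebi3-Treg and 1.20, 0.889, 0.726 and 1.06 in Blimp1-Treg. Just outside were Slc35d3 (0.999 FPKM) and the nucleoside carrier Slc29a2 (0.902 FPKM). The 200 genes with an Slc symbol below the filter were not tested.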

How the data were processed

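RNA was sequenced from 8 libraries, 4 of each Treg population, and the authors deposited FPKM per gene in 2 tables, each holding replicates of both populations. Bowtie2 2.2.3, TopHat2 2.0.12, HTSeq 0.6.1 and mm9 are named per the submitters' processing notes, which give no roles. The annotation, counting mode and strand are unknown, being not given in the sources used here, and FPKM depends on the length and fragment total used. Genes were joined by Ensembl identifier, and symbols were taken from a gene name table. Genes that reached 1 FPKM in 4 or more libraries were fitted on log2(FPKM + 1). The model, in limma 3.58.1 (R 4.3.3), held terms for population and for table, with trend and Benjamini-Hochberg adjustment over all 12273 genes. Other fits were within each table and of the difference between tables. Fold changes on this scale understate those of low genes. The code was tested on simulated data. Precision is set by 4 libraries a population. Whole reads were matched for 34.99% to 45.59% of values within 0.01 reads, so no count test was run.

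Members, substrate classes and lists were chosen with earlier results of these data known. Genes named are those past the threshold and the genes nearest the level filter. Also named are the 2 genes of each class with the smallest p and the 2 with the highest mean. Genes called only with the replicate block or in replicates 3 and 4 alone were added after their values were seen. Slc7a7, and genes listed without values, were named outside these rules. Deviations from population means correlated between same-numbered libraries at 0.62, 0.89, 0.53 and 0.54 for replicates 1 to 4, and numbers come from the sample titles, so the replicate block was fitted as an alternative. Those values include the difference between tables. Within tables they were 0.85 for replicates 1 and 2 and -0.08 for replicates 3 and 4. Alternatives were another pseudocount (0.1), no filter, a mean of at least 5 FPKM, median-of-ratios scaling, no variance trend, the replicate block, no table term, and leaving out libraries.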

Additional observations from a re-analysis of the deposited data

Results flagged for a closer look

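Dixon's test at 95% was applied to 96 groups of 4 libraries, those of 48 named genes in each population. It marked 11 values, from 3 libraries, as far from the other 3 of their group. Chance gives about 1 in 20 for independent groups, but these share the same 8 libraries. The count was thus not tested against chance. All marked values but that of Slc16a5 lay in the libraries numbered 2. In the libraries numbered 2, Slc3a2 was at 654 FPKM in Ebi3-Treg 2 (others 280.0 to 295) and 679.6 FPKM in Blimp1-Treg 2 (others 343 to 362). Slc25a3 was at 491 FPKM in Ebi3-Treg 2 (others 212 to 259) and 372 FPKM in Blimp1-Treg 2 (others 186 to 205). Slc25a5 was at 860.1 FPKM in Ebi3-Treg 2 (others 348 to 428). Slc35b1 was at 81.4 FPKM in Ebi3-Treg 2 (others 55.8 to 59.1) and 101.9 FPKM in Blimp1-Treg 2 (others 64.1 to 69.9). Lower than the others were Slc44a2 at 76.2 FPKM in Ebi3-Treg 2 (others 176 to 196), Slc29a3 at 8.81 FPKM in Ebi3-Treg 2 (others 14.5 to 15.1) and Slc28a2 at 59.9 FPKM in Blimp1-Treg 2 (others 97.6 to 101). Slc16a5 was at 4.86 FPKM in Blimp1-Treg 1 (others 0.642 to 1.34).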

How the results depend on the processing

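The fit of both tables called 6 genes higher and 9 lower. The number higher became 1 with no filter, 10 with median-of-ratios scaling, 31 with the replicate block, 2 with no table term, 19 without both libraries numbered 1 and 19 without both numbered 2. The number lower became 3 with no filter, 11 with median-of-ratios scaling, 17 with the replicate block and 3 with no table term. It became 16 without both libraries numbered 1 and 19 without both numbered 2. A mean of at least 5 FPKM kept 143 of the genes, with 4 higher and 8 lower. With no variance trend 7 were higher and 9 lower. The cause of these changes was not tested. With no filter, 40415 genes were fitted and adjusted for. Leaving out one library at a time gave 1 to 4 higher and 3 to 10 lower. In replicates 1 and 2, 0 genes were called, 51 with the replicate block and 0 to 1 when one library was left out. In replicates 3 and 4, 21 were called, 0 with no filter and 1 to 6 when one library was left out. The lone library left in a population was then assumed to vary like the others. The test of the difference between tables called 0 under every alternative run (pseudocount 0.1, leave-one-out, replicate block), the pseudocount and leave-one-out fits having been chosen after seeing the data.

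With the replicate block no solute carrier gene beside those named in the report changed its call over both tables, and none lost it. Other listed genes gained calls, as counted there. Under some settings, named genes with fold changes near 0 changed sign. Slc39a6 went to -0.00343 with median-of-ratios scaling, and Slc25a5 to 0.0276 and Slc9a3r1 to 0.0494 without both libraries numbered 1. When one library was left out, the fold change ran over both signs for Slc9a9 from -0.19 to 0.0861, Slc39a6 from -0.0894 to 0.22, Slc41a1 from -0.39 to 0.24, Slc25a5 from -0.24 to 0.16, Slc9a3r1 from -0.0835 to 0.0405, Slc35a4 from -0.0194 to 0.24 and Slc17a9 from -0.0653 to 0.19. Median-of-ratios scaling ended the call of Slc9b2 (adjusted p = 0.0675), as did the filter on a mean of 5 FPKM (adjusted p = 0.0661). That filter gave no value for Slc15a3, Slc26a10, Slc36a3os, Slc22a2 and other low genes. A depth of 13.3 to 31.3 M fragments leaves levels near 0, such as Slc22a2 in Blimp1-Treg, resting on few reads.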
